A study of Mus musculus with 8 samples.

Results

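Ccl17 and Ccl22 encode the chemokines that bind the receptor CCR4. The genes were chosen by their measured knockout differences, which turned from higher to lower between the ages compared here, so that turn and the differences behind it are given as a description, with no test. They are 2 of the 18782 genes that could be named on the array, each represented by a single probe set (10574226 for Ccl17 and 10574213 for Ccl22), and both entered every fit without a filter on dim signal. Mouse lung macrophages on the C57BL/6 background were profiled on 8 Affymetrix arrays in 4 groups of 2, and each array held RNA from sorted cells pooled from 2 mice. The control groups (WT) carried PPARg fl/fl, that is loxP-flanked Pparg without a recombinase, at day 2 and at day 11 after birth. The knockout groups (KO) carried CD11cCre/PPARg fl/fl at the same ages, so that deletion was driven by the CD11c promoter in cells that use it, including dendritic cells. Day 2 cells came from precursor gates (CD45+ F4/80+, high CD11c, and either intermediate Siglec-F with intermediate CD11b or low Siglec-F with high CD11b). Day 11 cells came from gates for mature alveolar macrophages (CD45+, high CD11c, high autofluorescence, Siglec-F+), and the cells were CD11b low in controls but CD11b high in knockouts. Gate and age therefore cannot be told apart, nor can gate and genotype at day 11. Which genotype lay in which day 2 gate is not stated in the labels.

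Ccl17 (TARC) and Ccl22 (MDC) are small secreted proteins that attract cells bearing CCR4, mainly T helper type 2 cells, regulatory T cells and skin-homing T cells. In the lung they are best known from allergic airway inflammation, where dendritic cells and macrophages release them. Interleukin 4 and interleukin 13 acting through STAT6, thymic stromal lymphopoietin (TSLP), GM-CSF and NF-kB are known inducers, the transcription factor IRF4 takes part in Ccl17 induction, and mature dendritic cells carry both transcripts. PPARγ, the deleted factor, is a nuclear receptor of fatty acid ligands on which alveolar macrophage development depends.

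The genes lie near each other on mouse chromosome 8, with only Cx3cl1 between them among protein coding genes. Their promoters are shown because both turned together. The 250 bases before each start site are from RefSeq (GRCm38.p6), in lower case with a pair of short runs in capitals. The first run, AGGTCA, is the element bound by many nuclear receptors, including PPARγ with its partner RXR. The other, TTAAATA, resembles a TATA box.
Ccl22 (chr8:94745434-94745683, plus strand): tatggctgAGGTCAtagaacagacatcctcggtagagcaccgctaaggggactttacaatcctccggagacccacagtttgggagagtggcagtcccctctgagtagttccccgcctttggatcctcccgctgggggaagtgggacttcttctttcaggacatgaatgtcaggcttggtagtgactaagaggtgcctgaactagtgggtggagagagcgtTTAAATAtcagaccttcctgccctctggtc
Ccl17 (chr8:94810203-94810452, plus strand): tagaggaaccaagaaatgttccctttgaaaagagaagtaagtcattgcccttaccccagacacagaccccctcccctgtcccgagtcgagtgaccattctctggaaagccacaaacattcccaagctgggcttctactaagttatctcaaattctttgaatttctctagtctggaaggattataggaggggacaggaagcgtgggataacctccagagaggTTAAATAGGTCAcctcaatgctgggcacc
Both strands were searched. TTAAATA began 30 bases before the start site of Ccl22 and 29 bases before that of Ccl17, and 4.18% of 32851 RefSeq promoters held it in the same window. AGGTCA occurred 1 time in each promoter, 242 bases upstream in Ccl22 and 23 bases upstream in Ccl17, where it overlaps the TATA-like run by its first base, and 14% of promoters held it. The direct repeat of it with a spacer of 1 base, which PPARγ with RXR prefers, was matched in neither window and in 0.0335% of all promoters. The STAT6 pattern TTCNNNNGAA matched the Ccl17 promoter as TTCTCTGGAA (5.85% of promoters) and the STAT5 pattern TTCNNNGAA matched it as TTCTTTGAA (7.02%), whereas the Ccl22 window held neither. The run GGGACTT, which stands in many NF-kB sites, occurred 2 times in the Ccl22 promoter and not in that of Ccl17 (4.65% of promoters), and the longer NF-kB consensus was found in neither (3.9% of promoters). GGGACTT and TTAAATA were chosen after these sequences had been read. These matches describe letters and say nothing about binding.

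Ccl17 signal was lowest in control precursors and in day 11 knockouts and highest in mature controls. On the log2 scale of the array it was 8.64 and 8.53 in day 2 controls, 9.75 and 9.73 in day 2 knockouts, 10.41 and 10.98 in day 11 controls, and 8.09 and 8.92 in day 11 knockouts. The knockout pools lay above the controls at day 2 and below them at day 11, and neither age showed an overlap of genotypes, as held for 58.2% of all genes at day 2 and 56.3% at day 11. The group means with SD (n = 2 arrays each) were 8.58 ± 0.07, 9.74 ± 0.01, 10.70 ± 0.40 and 8.50 ± 0.59 in that order. The knockout difference was 1.16 ± 0.26 (SE) at day 2, which is 2.23-fold higher, and -2.19 ± 0.26 at day 11, which is 4.57-fold lower. Between the ages the controls went up by 2.11 ± 0.26 (4.32-fold) and the knockouts went down by 1.24 (SE 0.26, 2.35-fold), so the controls and the knockouts moved in opposite directions as the gate passed from precursors to mature cells. Ordered from low to high the groups ran from knockout day 11 and control day 2, whose arrays overlapped (gap of means 0.08), to knockout day 2 (1.16 above) and control day 11 (0.96 above that). Within day 11 the second replicate was the brighter array of each genotype.

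Ccl22 signal was highest in the knockout precursors. It was 6.04 and 6.14 in day 2 controls, 7.30 and 6.82 in day 2 knockouts, 6.18 and 6.24 in day 11 controls, and 5.21 and 5.46 in day 11 knockouts. Controls of both ages lay within 0.20 of each other, with the knockout pools above that band at day 2 and below it at day 11. A lack of overlap of the genotypes held for 58.2% of all genes at day 2 and 56.3% at day 11. The group means with SD (n = 2 arrays each) were 6.09 ± 0.07, 7.06 ± 0.34, 6.21 ± 0.04 and 5.33 ± 0.18. The knockout difference was 0.97 ± 0.15 (SE) at day 2, or 1.95-fold higher, and -0.88 ± 0.15 at day 11, or 1.84-fold lower. The control change between the ages was 0.12 ± 0.15 and the knockout change -1.72 ± 0.15, a 3.30-fold lower signal. In the order of levels the steps were 0.76 from knockout day 11 to control day 2, 0.12 from there to control day 11, and 0.85 to knockout day 2. The step between the control groups was smaller than its SE. Day 11 knockout signal of Ccl22 lay below the median of all named genes on an array (5.72 to 5.76), and no detection call was used, so how far it stood above background is not known. In sorted bulk RNA, fewer cells that make a transcript and less transcript per cell cannot be told apart.

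**Figure D1:**
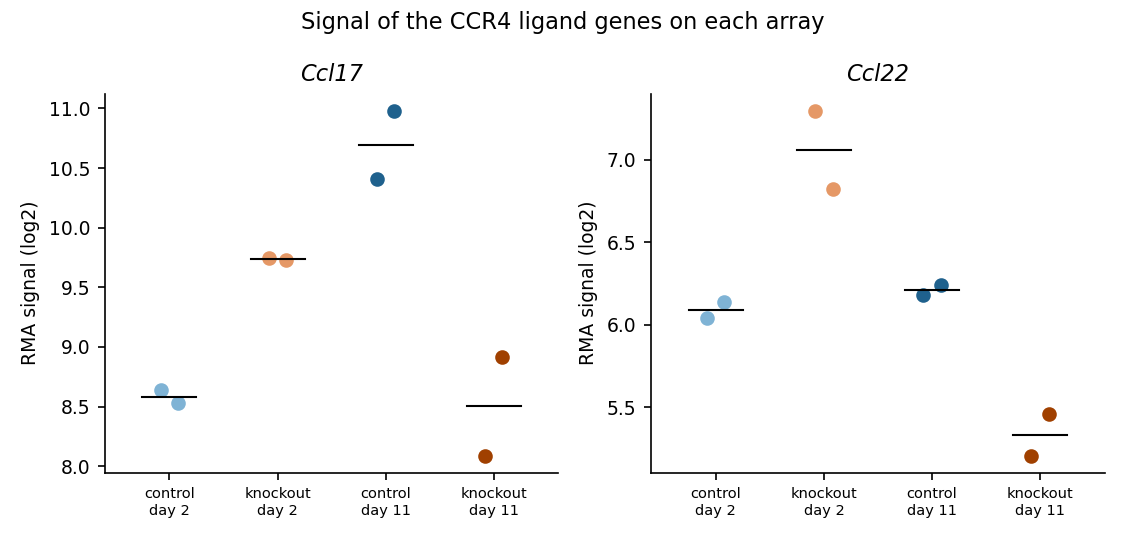
Array signal (RMA, log2) of Ccl17 and Ccl22 in the 4 groups, with a point for each array of 2 pooled mice and a bar for the mean of 2 arrays. Knockout points lie above controls at day 2 and below them at day 11 in both panels, and only Ccl17 is higher in day 11 than in day 2 controls by more than 2 log2 units.

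The age effect averaged over the genotypes is the comparison that does not use the knockout differences, and it could therefore be tested (limma, adjusted over all 18782 genes). Ccl22 fell with age by 0.80 on the log2 scale (SE 0.11, 95% interval -1.05 to -0.55, 1.74-fold, adjusted p = 0.00227), beside 8.65% of all genes called lower and 9.97% called higher. Both day 11 knockout arrays lay below both day 2 knockout arrays, while the control arrays of day 11 lay slightly above those of day 2, so the averaged fall was carried by the knockouts. The averaged age effect of Ccl17 was 0.44 ± 0.19 (95% interval 0.01 to 0.87 before adjustment, adjusted p = 0.153) and did not pass the threshold of 0.05. It passed without the first day 11 knockout array (0.65 ± 0.13, adjusted p = 0.0209). The members therefore had opposite signs in this comparison, and the difference between them was tested on the log2 distance of Ccl17 above Ccl22 within each array, a test chosen after the values had been seen. This distance was 2.59 and 2.39 in day 2 controls, 2.45 and 2.91 in day 2 knockouts, 4.23 and 4.74 in day 11 controls and 2.88 and 3.46 in day 11 knockouts. The control pools at day 11 stood apart, and the lower day 11 knockout pool reached into the range of day 2. Its group mean rose from 2.49 to 4.48 in controls and from 2.68 to 3.17 in knockouts. The distance was 1.24 larger at day 11 (two-sided exact permutation test over 70 arrangements of the arrays, p = 0.0571, where the smallest possible p is 0.0286). Without the first day 11 knockout array it was 1.55 larger. Because the test was chosen after the values had been seen and its arrangements ignored genotype, no conclusion is drawn from its p.

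The change of the knockout difference between the ages, by which the genes were chosen, was -3.35 ± 0.37 for Ccl17 and -1.84 ± 0.21 for Ccl22. In the genome-wide fit, 3774 genes (20.1%) were called between genotypes at day 2, with 8.86% higher and 11.2% lower in knockouts, and 3500 (18.6%) at day 11, with 9.34% higher and 9.29% lower. The total at day 2 was 2428 without the first and 2223 without the second day 2 control array, and that at day 11 was 2059 without the first day 11 control array. Higher at both ages were 922 genes (4.91%) and lower at both 1134 (6.04%). The change of the difference between the ages was called for 615 genes (3.27%), for 197 and 215 without the first or second day 2 control array, for 254 and 248 without the first or second day 11 control array, for 405 without the second day 11 knockout array and for 942 without the second day 2 knockout array. Only 33 genes (0.176%) were called higher at day 2 and lower at day 11, and 12 (0.0639%) the reverse. Both members were chosen for this pattern, so nothing is read from where they stand among these genes. The number of such genes fell to 14 and 16 without the first or second day 2 control array, to 16 and 20 without the first or second day 11 control array, and to 19 without the first day 11 knockout array.

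**Figure D2:**
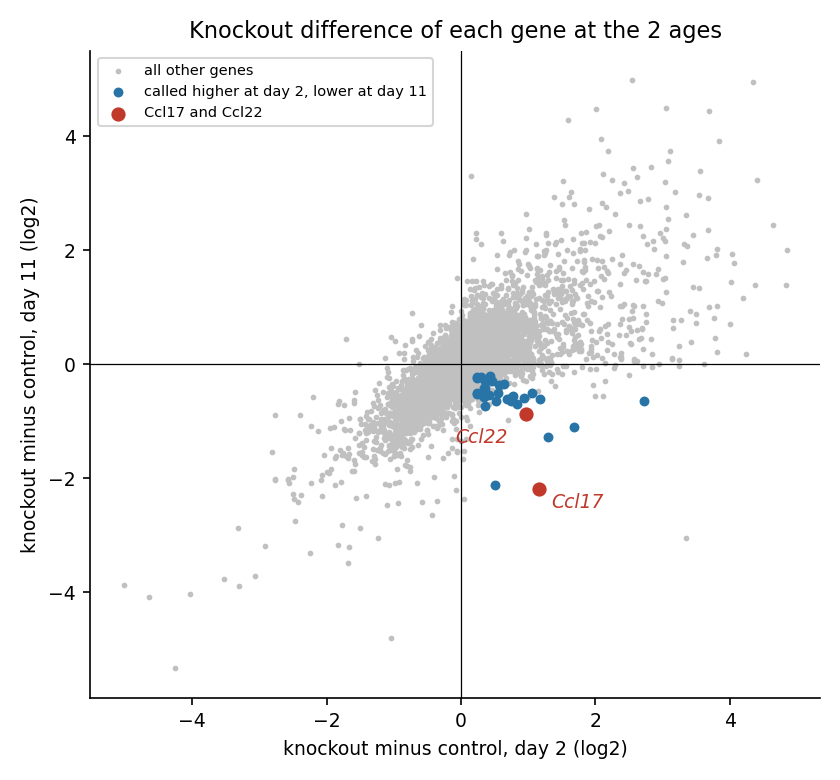
Knockout minus control difference (log2) of each of 18782 genes at day 2 (horizontal) and day 11 (vertical). Most genes lie along a rising diagonal, the 33 genes called higher at day 2 and lower at day 11 sit at the lower right, and Ccl17 (1.16, -2.19) and Ccl22 (0.97, -0.88), which were chosen for this pattern, lie on the same side.

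The receptor itself was dim in every group. Ccr4, the receptor of both ligands, ranged from 3.45 to 3.66 over all 8 arrays, with a knockout difference of 0.06 ± 0.08 at day 2 (adjusted p = 0.635) and -0.08 ± 0.08 at day 11 (adjusted p = 0.56). Of 7 measured genes for CCR4, related and scavenging receptors and the protease DPP4, 3 were higher in knockouts at day 2 and none lower. At day 11, 1 was higher and none lower. Calls over all genes were 8.86% higher and 11.2% lower at day 2, and 9.34% and 9.29% at day 11. The list medians were 0.25 and -0.07 beside -0.03 and -0.00 over all genes. Dpp4, whose protease trims CCL22 and other chemokines, rose by 1.23 ± 0.08 at day 2 (adjusted p = 4.69e-05) and showed -0.16 ± 0.08 at day 11 (adjusted p = 0.237). Ccrl2, an atypical receptor that binds chemerin, rose at both ages, by 0.94 ± 0.07 and 0.53 ± 0.07 (adjusted p = 8.14e-05 and 0.00129). Ackr2, a decoy receptor that takes up inflammatory CC chemokines including both members, was 4.56 and 4.55 in day 2 controls and 4.92 and 4.77 in day 2 knockouts (0.29 ± 0.08, adjusted p = 0.0402). That call was lost without any single control array, without the first day 2 knockout array, with the replicate block and when day 2 arrays were fitted alone (adjusted p from 0.0582 to 0.181).

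Other chemokine genes were called in both directions at each age, as genes in general were. Over all genes, 8.86% were called higher and 11.2% lower at day 2, and 9.34% and 9.29% at day 11. Of 19 further CC and related chemokines measured, 4 (Ccl2, Ccl7, Ccl4 and Ccl3) were higher and 1 (Cx3cl1) lower in knockouts at day 2, and 2 (Ccl2 and Ccl7) were higher and 2 (Cx3cl1 and Ccl9) lower at day 11. None of the 19 was among the genes called higher at day 2 and lower at day 11. As only 0.176% of all genes were, this absence says little. Their medians were 0.00 at day 2 and 0.07 at day 11, and 2 rather than 4 were called higher at day 2 without either day 2 control array. Ccl2, which draws monocytes through CCR2, was 6.18 and 6.28 in day 2 controls, 10.44 and 9.62 in day 2 knockouts, 7.77 and 7.63 in day 11 controls and 9.53 and 9.71 in day 11 knockouts. It stayed above the controls at both ages, by 3.80 ± 0.22 (adjusted p = 2.96e-05) and 1.92 ± 0.22 (adjusted p = 0.000749). Ccl7, another CCR2 ligand, rose by 2.87 ± 0.37 and 2.02 ± 0.37 (adjusted p = 0.00118 and 0.00686), the day 11 call being lost without the second day 11 control array (adjusted p = 0.0538). Ccl9 at day 11 (-0.37 ± 0.10, adjusted p = 0.0314) lost its call without the second knockout or the first control array of that age, or without either day 2 control array (adjusted p from 0.0542 to 0.189).

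Cx3cl1, the membrane-bound ligand of CX3CR1 that lies between the members on the chromosome, was lower in knockouts at both ages. Its signal was 7.47 and 7.49 in day 2 controls, 6.44 and 6.61 in day 2 knockouts, 8.18 and 8.15 in day 11 controls and 6.22 and 6.46 in day 11 knockouts. The genotypes were apart at both ages with the knockouts below, with a log2 difference of -0.95 ± 0.09 at day 2 (adjusted p = 0.000318) and -1.83 ± 0.09 at day 11 (adjusted p = 1.82e-05). At day 2 the gene between the members thus differed in the other direction from both of them. Of the 20 nearest protein coding genes, 10 on each side, 16 were measured. Among these, 1 was called higher and 2 lower in knockouts at day 2, and the counts were equal at day 11, next to the genome-wide shares given above. Arl2bp, which encodes a partner of the small GTPase ARL2, rose by 0.59 ± 0.08 at day 2 (adjusted p = 0.00188) and by 0.33 ± 0.08 at day 11 (adjusted p = 0.0275, but 0.129 and 0.0724 without the first or second day 11 knockout and 0.142 without the second day 11 control). Herpud1, a gene of the endoplasmic reticulum stress response, fell at both ages (-0.49 ± 0.06 and -0.60 ± 0.06, adjusted p = 0.0012 and 0.000432). Adgrg1, an adhesion receptor gene, fell at both ages (-1.57 ± 0.23 and -2.34 ± 0.23, adjusted p = 0.0023 and 0.000343). The order of genes is that of RefSeq GRCm38.p6.

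**Figure D3:**
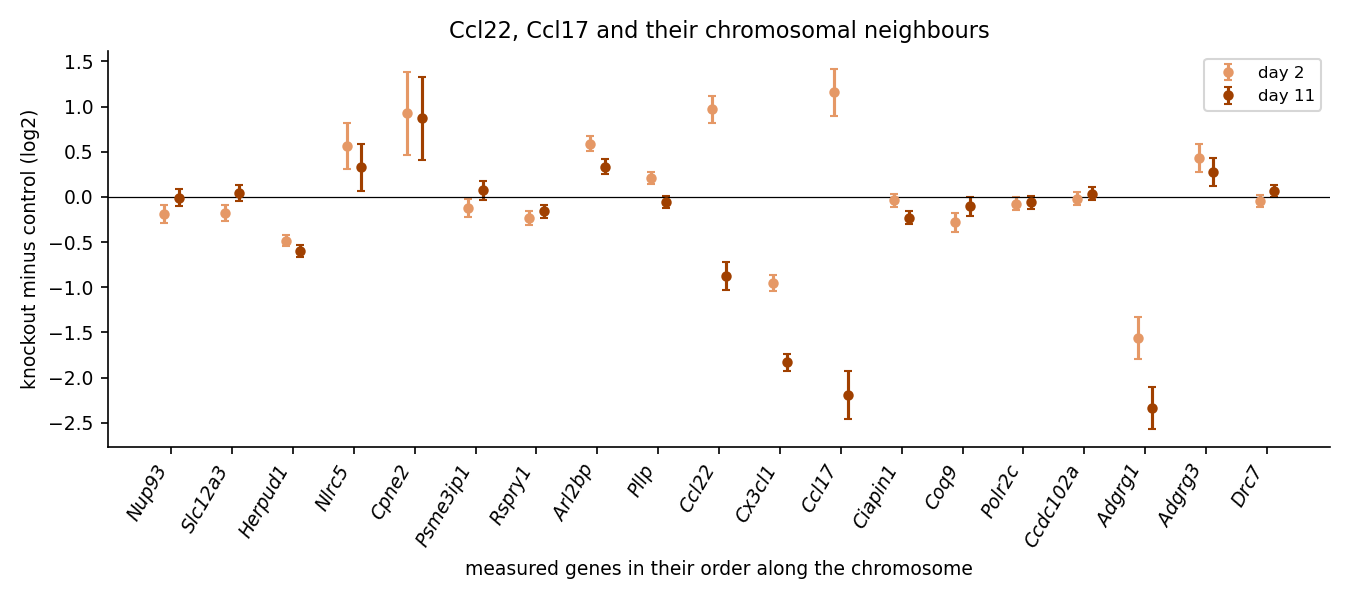
Knockout minus control difference (log2, bars are SE of the fit, 2 arrays per group) of the measured protein coding genes around Ccl22 and Ccl17, in their order along the chromosome. Ccl22 and Ccl17 are above 0 at day 2 and below 0 at day 11, whereas Cx3cl1 between them is below 0 at both ages.

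Among genes of signalling by receptors that induce the ligands, more were called higher than lower in the knockouts at both ages. Shares over all genes were 8.86% higher and 11.2% lower at day 2, and 9.34% and 9.29% at day 11. The list also holds the feedback inhibitors Socs1, Socs2, Socs3 and Cish, so its counts do not measure inducers alone. Of 19 measured genes of IL-4, TSLP and GM-CSF receptor signalling, 11 were called higher and none lower at day 2 (7 higher without the second day 2 control array), and 7 higher and 1 lower at day 11, with medians of 0.42 and 0.25. Irf4 was 4.85 and 4.61 in day 2 controls, 8.66 and 8.88 in day 2 knockouts, 6.20 and 6.87 in day 11 controls and 8.02 and 8.92 in day 11 knockouts. The knockout arrays were the higher ones at both ages, by 4.04 ± 0.30 (adjusted p = 8.85e-05) and 1.93 ± 0.30 (adjusted p = 0.00318). Ccl17 and Ccl22 were likewise higher in knockouts at day 2 but lower at day 11. Between the ages Irf4 changed by 1.81 ± 0.30 in controls, beside 2.11 for Ccl17 and 0.12 for Ccl22. In knockouts it changed by -0.30 ± 0.30, beside -1.24 and -1.72. The part of Irf4 in the ligand levels was not tested. Il7r, which forms the TSLP receptor with Crlf2, rose by 2.82 ± 0.32 and 3.46 ± 0.32 (adjusted p = 0.000665 and 0.000264). Socs3, a feedback inhibitor of cytokine receptors, rose by 2.73 ± 0.20 at day 11 (adjusted p = 8.17e-05). Stat6, the transcription factor downstream of IL-4 and IL-13, ranged from 10.16 to 10.37 over the 8 arrays, with knockout differences of -0.12 ± 0.07 and 0.04 ± 0.07 (adjusted p = 0.283 and 0.773). Stat5a, downstream of GM-CSF and TSLP, was lower at day 11 (-0.32 ± 0.07, adjusted p = 0.014), a call lost without the second knockout array or either control array of that age (adjusted p from 0.0589 to 0.0856).

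Most NF-kB genes were called higher at day 2, when 8.86% of all genes were called higher and 11.2% lower. The shares at day 11 were 9.34% and 9.29%. Of 17 measured, 13 were called higher and none lower at day 2 (median 0.59), and 5 higher and none lower at day 11 (median 0.11, and 3 higher without the first day 11 control array). Traf1, an adaptor of TNF receptors, rose by 1.90 ± 0.17 at day 2 (adjusted p = 0.000226) and showed 0.20 ± 0.17 at day 11 (adjusted p = 0.532). Cd40, a costimulatory receptor that activates NF-kB, was 8.18 in the first and 6.39 in the second day 2 knockout pool against 5.04 and 4.94 in the controls (2.30 ± 0.46, adjusted p = 0.00986), a call lost without either day 2 control array (adjusted p = 0.0553 and 0.0678). Bcl3 and Nfkbiz, atypical nuclear IκB proteins, rose at day 11 by 0.88 ± 0.13 and 0.69 ± 0.12 (adjusted p = 0.00246 and 0.00535). For 6 of the 17 genes the knockout difference was called smaller at day 11 than at day 2 and for none larger, against 1.99% and 1.29% of all genes, and the count was 2 without either day 2 control array or without the second day 11 control array and 3 without the first day 11 knockout array.

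Among 18 genes of alternative activation, the macrophage state driven by IL-4, 8 were higher and 2 lower at day 2 (median 0.43). At day 11, 3 were higher and 2 lower (median 0.10). Beside these stand 8.86% of all genes called higher and 11.2% lower at day 2, and 9.34% and 9.29% at day 11. Besides Mgl2 and Cd209a, described with the dendritic cell genes, the secreted chitinase-like protein gene Chil3 fell by 2.20 ± 0.35 at day 2 (adjusted p = 0.00329). The cholesterol 25-hydroxylase gene Ch25h rose by 1.58 ± 0.19 at day 11 (adjusted p = 0.000777). At that age the transglutaminase gene Tgm2 fell (-0.93 ± 0.11, adjusted p = 0.000928). The calls of Mrc1 (mannose receptor, -0.50 and -0.41, adjusted p = 0.00968 and 0.0246) and of Myc at day 11 (0.37, adjusted p = 0.0346) were lost without any single control array of the age concerned or, at day 11, any knockout array (adjusted p from 0.0587 to 0.171), and the day 11 counts then fell to 1 in either direction without some of these arrays.

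Many genes of dendritic cells were higher in knockouts at day 2, as the ligands were. Their counts stand beside 8.86% of all genes called higher and 11.2% lower at day 2. At day 11 these shares were 9.34% and 9.29%. Of 25 measured genes of the mature dendritic cell program, 16 were higher and 2 lower in knockouts at day 2 (median 0.94, and 1 lower without either day 2 control array), and 7 higher and 2 lower at day 11 (median 0.05). Of 22 general dendritic cell markers, 11 were higher and none lower at day 2 (median 0.47, and 6 higher when only genes above the median signal were tested), and 3 (Irf4, Clec9a and Cd24a) were higher and 2 (Sirpa and Epcam) lower at day 11 (median 0.005). Ccr7, the receptor that guides mature dendritic cells to lymph nodes, was 6.72 and 6.96 in day 2 controls, 8.13 and 7.93 in day 2 knockouts, 6.82 and 6.86 in day 11 controls and 6.82 and 6.89 in day 11 knockouts. Only the day 2 knockouts were high, and the difference there was 1.20 ± 0.10 (adjusted p = 0.000135) against 0.01 ± 0.10 at day 11 (adjusted p = 0.957). Mgl2, a galactose-type lectin of dendritic cells and some macrophages, was 5.08 and 5.04, 8.26 and 8.70, 5.07 and 5.45, and 5.16 and 6.15 in the same order of groups, with a difference of 3.42 ± 0.30 at day 2 (adjusted p = 0.000171) and 0.39 ± 0.30 at day 11 (adjusted p = 0.461). Cd209a, a lectin of monocyte-derived dendritic cells, was 5.26 and 5.57, 8.81 and 9.63, 5.14 and 5.43, and 5.28 and 5.72, with a difference of 3.81 ± 0.27 at day 2 (adjusted p = 6.21e-05) and 0.22 ± 0.27 at day 11 (adjusted p = 0.675). These 3 genes were high in day 2 knockouts, as Ccl17 and Ccl22 were, but at day 11 the knockouts lay near the controls rather than below them.

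At day 11, 17 of the 22 dendritic cell markers and 16 of the 25 mature dendritic cell genes were not called. Some others stayed higher in the knockouts. Clec9a, a receptor for dead cells, rose by 3.05 ± 0.18 at day 11 (adjusted p = 3.21e-05), and Cd86, a costimulatory ligand of T cells, by 1.70 ± 0.10 (adjusted p = 3.05e-05). Tnfsf9, the ligand of the costimulatory receptor CD137, rose by 2.56 ± 0.23 at day 2 and by 3.45 ± 0.23 at day 11 (adjusted p = 0.000216 and 5.55e-05). Marcks, an actin-binding protein kinase C substrate, rose by 2.90 ± 0.40 at day 2 (adjusted p = 0.0016). The adhesion gene Epcam fell by 0.98 ± 0.08 at day 11 (adjusted p = 0.000108). The lower genes Cd200 (-1.44 and -1.45, adjusted p = 0.013 and 0.0134) and, at day 11, Laptm4b (-0.39, adjusted p = 0.0161) and Sirpa (-0.26, adjusted p = 0.0222) did not stay called when single arrays were left out (highest adjusted p 0.0857, 0.109 and 0.129). The mean signal over the 22 dendritic cell markers was 5.71 and 5.73 in day 2 controls, 6.77 and 6.82 in day 2 knockouts, 5.80 and 5.93 in day 11 controls and 6.03 and 6.18 in day 11 knockouts. Ccl17 signal was highest in day 11 controls, and this marker mean was highest in day 2 knockouts. A mean does not show single markers, which did not all change alike between the ages. The part of dendritic cells in the level of the ligands was not tested.

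**Figure D4:**
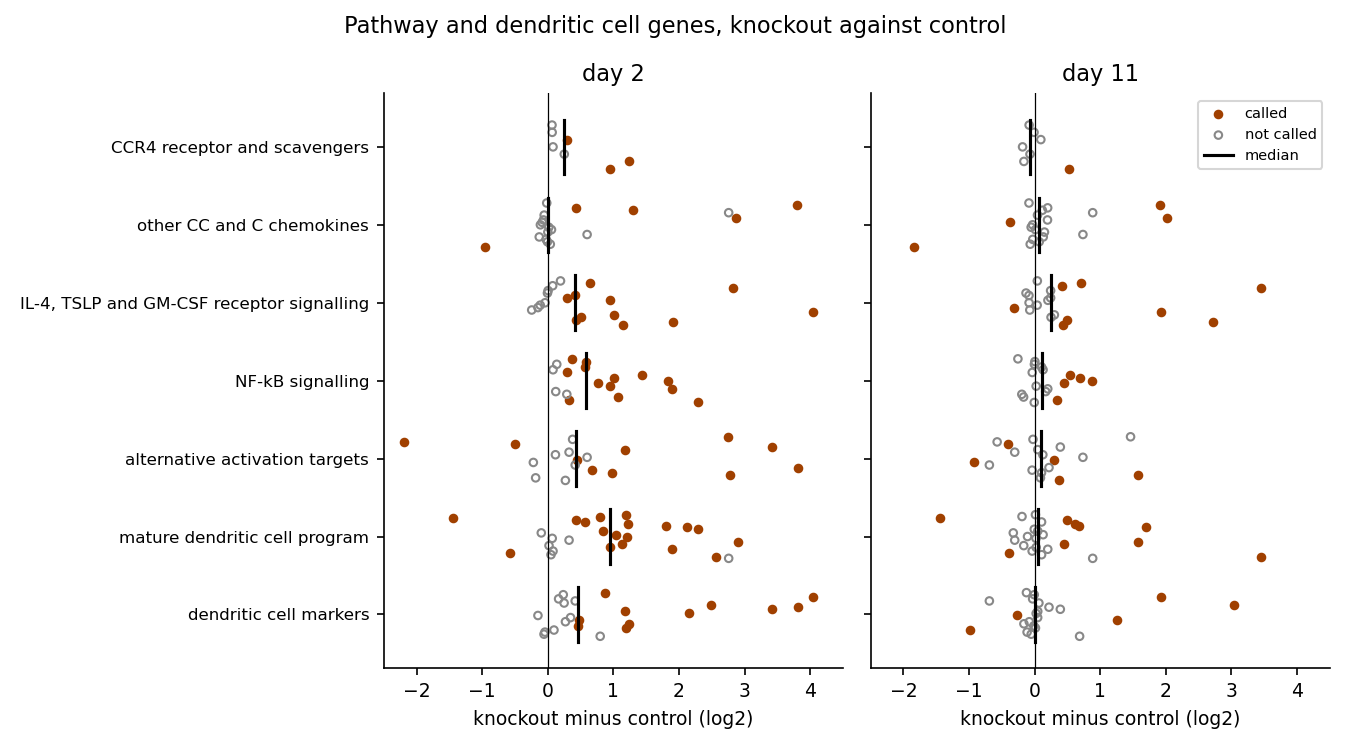
Knockout minus control difference (log2) of the measured genes of 7 lists at day 2 (left) and day 11 (right), with filled points for genes called by limma at an adjusted p under 0.05, open points for the others and a bar at the median. The medians of the NF-kB and mature dendritic cell lists are 0.59 and 0.94 at day 2 and 0.11 and 0.05 at day 11.

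**Figure D5:**
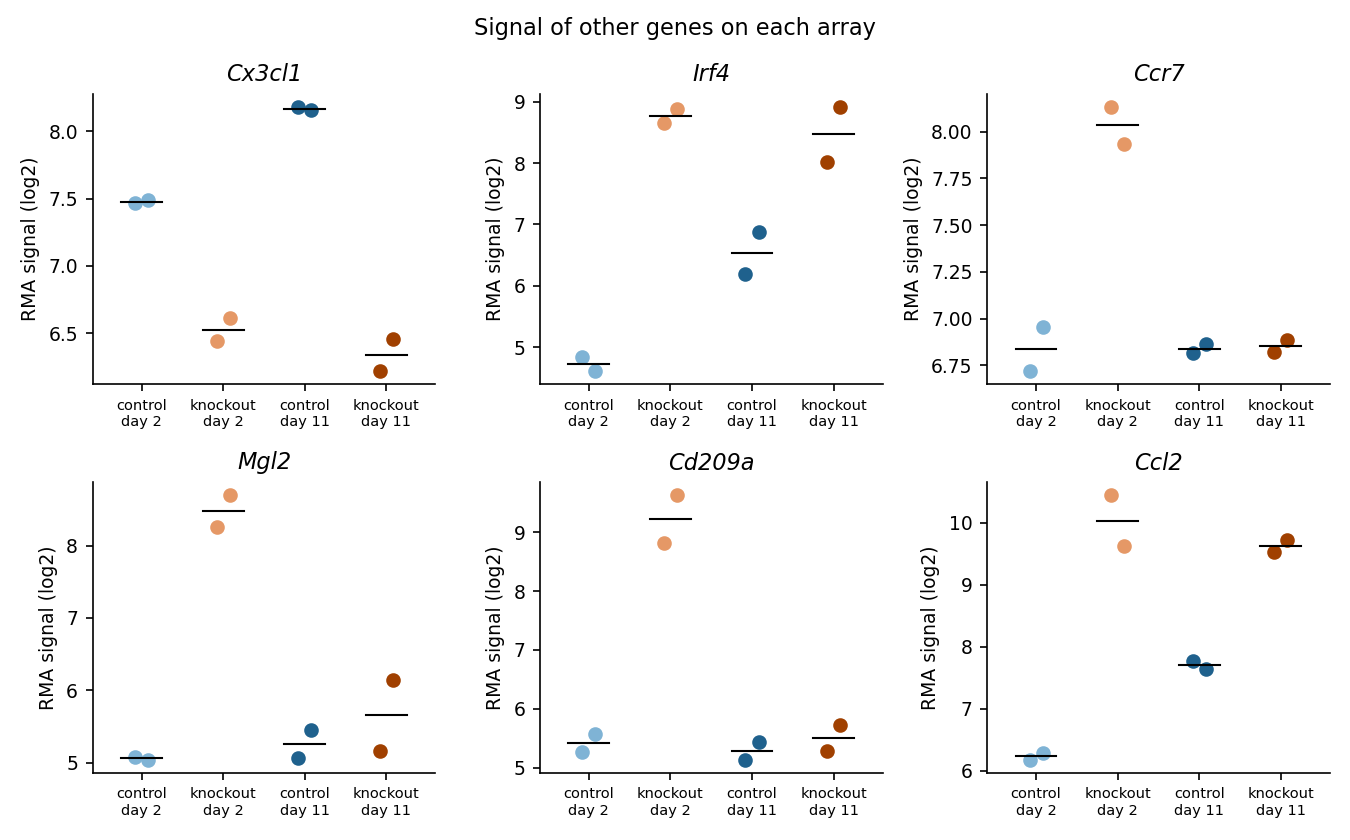
Array signal (RMA, log2) of Cx3cl1, Irf4, Ccr7, Mgl2, Cd209a and Ccl2 in the 4 groups, with a point for each array and a bar for the mean of 2 arrays. Ccr7, Mgl2 and Cd209a are high in day 2 knockouts, Irf4 and Ccl2 are higher in knockouts at both ages, and Cx3cl1 is lower in knockouts at both ages.

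Markers of the labelled cells and of other cells moved with genotype as follows. Counts here and in the next paragraph stand beside 8.86% of all genes called higher and 11.2% lower at day 2. For day 11 the shares were 9.34% and 9.29%. Pparg itself was 10.89 and 11.01 in day 2 controls, 10.55 and 10.74 in day 2 knockouts, 11.18 and 11.13 in day 11 controls and 11.32 and 11.36 in day 11 knockouts, and whether its probe set lies in the deleted part of the gene is not known, so it does not check the labels. Of 18 alveolar macrophage markers, 13 were lower and 1 (the protease gene Ctsk, 0.52 ± 0.06) higher in knockouts at day 2, and 11 lower and 1 (Ctsk, 0.63 ± 0.06) higher at day 11. Their mean signal was 10.5 in both day 2 control pools, 8.77 and 9.02 in day 2 knockouts, 11.2 in both day 11 controls and 9.63 in both day 11 knockouts. The furthest below controls were the keratin genes Krt19 (-5.02 ± 0.31, adjusted p = 3.74e-05) and Krt79 (-4.25 ± 0.13, 2.29e-06) at day 2, and Krt79 (-5.33 ± 0.13, 1.1e-06) and the fatty acid binding protein gene Fabp1 (-4.79 ± 0.16, 4.53e-06) at day 11. Siglecf, the gene of the sorting marker, was 9.88 in day 2 controls, 7.30 in day 2 knockouts, 10.8 in day 11 controls and 8.79 in day 11 knockouts (means of 2 arrays).

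Monocyte and neutrophil markers were mostly higher in the knockouts at day 2, as Ccl17 and Ccl22 were. Of 12 monocyte markers, 10 were higher and 1 (Chil3) lower at day 2 and 7 higher and none lower at day 11, with mean signals of 7.96 and 7.90 in day 2 controls, 9.69 and 9.31 in day 2 knockouts, 7.60 and 7.62 in day 11 controls, and 8.51 and 8.42 in day 11 knockouts. Ms4a4c, a tetraspan gene of Ly6C-high monocytes, was 9.64 in the first and 6.27 in the second day 2 knockout pool against 3.69 and 3.72 in the controls (4.25 ± 0.87, adjusted p = 0.011), a call lost without either day 2 control array (0.0642 and 0.0674). The fractalkine receptor gene Cx3cr1 rose by 3.46 ± 0.13 at day 2 (4.1e-06). Itgam, which encodes the gated marker CD11b, rose by 4.49 ± 0.10 (8.37e-07) and the CCL2 receptor gene Ccr2 by 2.25 ± 0.10 (1.09e-05) at day 11. The sort took CD11b high knockouts and CD11b low controls at that age. Genotype and gate therefore cannot be told apart for Itgam, which is among the monocyte markers counted. Of 11 neutrophil markers, 7 were higher and 1 (Cxcr2) lower at day 2, and 2 (Mmp8 and S100a8) higher and 2 (Csf3r and Cxcr2) lower at day 11, with means of 5.52 and 5.59, 6.64 and 6.65, 5.74 and 5.64, and 5.97 and 5.87 in the same order. The collagenase gene Mmp8 rose by 4.40 ± 0.14 (2.37e-06) and the resistin-like gene Retnlg by 2.50 ± 0.11 (9.48e-06) at day 2. The Cxcr2 calls (-0.78 and -0.67, adjusted p = 0.0207 and 0.0399) did not hold without single arrays (up to 0.182).

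Calls among markers of lymphocytes, granulocytes and lung tissue stand beside 20.1% of all genes called at day 2 and 18.6% at day 11. T cell and innate lymphoid markers had means from 4.92 to 5.15 over all arrays, with 2 of 13 higher at day 2 (Cd3e, a subunit of the T cell receptor complex, 0.58 ± 0.08, adjusted p = 0.00168, and the IL-2 receptor gene Il2ra, 0.53 ± 0.08, 0.00236), 1 (Cd3e, 0.36 ± 0.08, 0.0174) higher at day 11 and none lower. The day 11 call of Cd3e was lost without the first control or second knockout array (0.111 and 0.096). B cell, eosinophil, mast cell and basophil markers had means between 4.05 and 4.98. None of 7 B cell markers was called at day 2 and 2 (Cd79b, -0.69 ± 0.08, and Ms4a1, -0.46 ± 0.13) were lower at day 11, 1 of 6 eosinophil genes (Ear6) was lower at both ages (-0.52 and -0.58), and 2 of 10 mast cell and basophil genes (Hdc, 1.05 ± 0.19, and Cpa3, 0.38 ± 0.10) were higher at day 2 and none at day 11. The calls of Ms4a1 and Cpa3 were lost in most fits without 1 array, and that of Hdc without the first day 2 control array (0.0523). Lung epithelial markers had means from 6.58 to 7.03, with 1 of 12 (Hopx, 0.68 ± 0.09) higher and 2 (the club cell secretoglobin gene Scgb1a1, -1.05 ± 0.18, and Ager, -0.57 ± 0.11) lower at day 2 and 1 (Hopx, 1.47 ± 0.09) higher and 4 lower at day 11. Without either day 2 control array the call of Ager at day 2 was lost (0.061 and 0.0502) and 1 epithelial gene was called lower there. Endothelial and fibroblast markers had means from 5.35 to 5.83, with 3 of 12 (Kdr, Pecam1 and Cdh5) higher at day 2, Kdr not without either day 2 control array (0.0971 and 0.102), and 1 (Acta2, 0.52 ± 0.08) at day 11. The part of any of these cells in the signal of Ccl17 and Ccl22 was not tested.

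The genes with the pattern most like the pair were found by Pearson correlation over the 8 arrays with the mean of the standardised Ccl17 and Ccl22 signals, among 1170 named genes with an SD of at least 0.5 over the arrays. The arrays form 4 groups, so this measure mostly compares group means, and it is a description. It placed first Chst15, which adds sulfate to chondroitin (r = 0.87), then Csf3r, the G-CSF receptor (0.87), Cd300e, an activating receptor of monocytes (0.86), Smpdl3b, a phosphodiesterase of the cell surface (0.84), Gpr171, a G protein-coupled receptor (0.78), Grk3, a receptor kinase (0.77), Clec2d, a ligand of the lectin receptor NKR-P1 (0.76), and Ocstamp, a fusion gene of osteoclasts (0.76). Chst15 was closer to Ccl17 (r = 0.85) than to Ccl22 (0.67), with group means of 5.85 in day 2 controls, 6.36 in day 2 knockouts, 6.98 in day 11 controls and 4.86 in day 11 knockouts. Like Ccl17, it was brightest in mature controls. Gpr171 was closer to Ccl22 (0.97) than to Ccl17 (0.40), with means of 7.26, 8.42, 7.23 and 6.62 in the same order. Like Ccl22, it was brightest in the knockout precursors and similar in the control groups. Csf3r had means of 7.51, 8.80, 8.15 and 6.88, and Cd300e 6.47, 8.15, 7.26 and 6.16. In both genes, as in the pair, the knockouts were above the controls at day 2 and below them at day 11.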

How the data were processed

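RNA of sorted lung macrophages was hybridised to Affymetrix whole-transcript arrays. The deposited table holds 1 log2 value for each of 28874 probe sets and 8 arrays, deposited by the authors after RMA. The submitters' processing notes name RMA and R 2.15.2, and the level at which probes were summarised is not stated. RMA brings the arrays to a common distribution (median 5.35 on each), so a shift of all genes cannot be seen. Probe sets with 1 symbol in the platform annotation (21159) were kept, and for a gene with several the brightest over the arrays, which left 18782 genes. Limma 3.58.1 in R 4.3.3 was fitted with 1 mean per group over all 8 arrays (4 residual and 3.77 prior degrees of freedom, prior SD 0.081). Adjusted p-values are Benjamini-Hochberg over all 18782 genes, and genes were called under 0.05. P-values measure the spread between pools, and 2 arrays per group limit precision. Labels give no detail on litters, and no replicate block was used. The fit was tested on simulated data with 200 changed genes. Plots used matplotlib 3.10.9 in Python 3.11.15.

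The members and the gene lists were chosen with earlier results of these data known. Named genes are the members, Ccr4, Ackr2, Cx3cl1, Irf4, Stat6, Ccr7, Mgl2 and Cd209a, for each list and age the called genes with the 2 highest and 2 lowest differences, called chromosomal neighbours within 10 genes and the 8 genes most like the pair. Crlf2, Siglecf, Pparg and the genes that complete a count of 5 or fewer were named after their values were seen. Alternatives were each array left out, the replicate block, repeated quantile normalization, centring on the mean of named genes, a trend and robust prior, a filter on dim genes, the mean of all probe sets and a fit of only the 4 arrays compared.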

Additional observations from a re-analysis of the deposited data

Results flagged for a closer look

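The knockout difference of both members changed sign between the ages, by -3.35 on the log2 scale for Ccl17 and -1.84 for Ccl22. Every knockout array lay above the controls at day 2 and below them at day 11. With 2 arrays per group, the genotypes did not overlap for 58.2% of all genes at day 2 and 56.3% at day 11. This change chose the members and was not tested.

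Between the ages, the knockout difference changed by limma's interaction test for 10 named genes of the ligand, signalling and dendritic cell lists. By the same test 3.27% of all genes were called. Named genes were picked from the same arrays for large knockout differences at an age, or with earlier results known. Their p-values here, and those of the markers below, are therefore not independent support. The change was -3.59 for Cd209a (adjusted p = 0.00336), -1.18 for Ccr7 (0.00532), -1.39 for Dpp4 (0.00115) and -1.07 for Epcam (0.00283), and these 4 calls held in each alternative in which the gene was tested. It was -3.02 for Mgl2 (0.0104) and -1.70 for Traf1 (0.0126), both lost without either day 2 control array or the second day 11 control array (adjusted p from 0.0547 to 0.0694). It was -0.88 for Cx3cl1 (0.0147), lost without any single control array (0.0616 to 0.0778). It was -2.11 for Irf4 (0.0428), -1.88 for Ccl2 (0.0233) and -0.95 for Bcl3 (0.0365), each lost without most single arrays (up to 0.157, 0.108 and 0.14). For Irf4, Ccl2, Bcl3 and Cx3cl1 the knockout difference was called in the same direction at both ages. For Cd209a, Mgl2, Traf1 and Ccr7 it kept its sign but was not called at day 11. For Dpp4 and Epcam the sign changed, but the difference was not called at day 11 for Dpp4 (-0.16) or at day 2 for Epcam (0.09).

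Among named markers of other lists, the change was -3.75 for Fabp1 (adjusted p = 0.000399), -2.09 for Cx3cr1 (0.00163), 1.44 for Itgam (0.00227) and -0.80 for Cd79b (0.00908). The change of Itgam cannot be told apart from the day 11 sort on CD11b, which it encodes. Further changes were -2.69 for Retnlg (0.00033), -2.57 for Csf3r (0.00443) and -1.82 for Pecam1 (0.000841). The change was -1.08 for Krt79 (0.0238), -0.61 for Il2ra (0.0292), -1.17 for Mmp8 (0.0244) and 0.79 for Hopx (0.017). These 4 calls were lost without at least 4 single arrays each.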

How the results depend on the processing

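The averaged fall of Ccl22 with age stayed called in every alternative, from -0.92 to -0.68 with single arrays left out (adjusted p from 0.00031 to 0.0144), and was -0.80 with the replicate block (adjusted p = 0.00445). The averaged age effect of Ccl17 ran from 0.23 to 0.65 with single arrays left out (adjusted p from 0.0209 to 0.38) and was 0.44 with the replicate block (adjusted p = 0.102). The added distance between the members ran from 0.94 to 1.55 (exact permutation p from 0.0286 to 0.0857). The knockout differences kept their signs, with ranges over left-out arrays of 1.10 to 1.21 and -2.61 to -1.78 for Ccl17 and of 0.73 to 1.21 and -1.0 to -0.75 for Ccl22.

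With single arrays left out, genes called ranged from 2223 to 3605 at day 2, from 2059 to 3760 at day 11, from 197 to 942 for the change between ages (615 with all arrays) and from 2228 to 3760 for the averaged age effect (3497 with all arrays). Genes higher at day 2 and lower at day 11 ranged from 14 to 39, and were 19 when only the 4 arrays of an age were fitted. The replicate block gave 3692, 3415, 558 and 3387 calls and changed no call of the members. Deviations of same-numbered arrays correlated across genes with r from -0.08 to 0.25, so the numbers were not taken to pair the samples. With a single array left in a group, that array was assumed to vary like the other groups. The table holds no signal over background, which limits dim genes such as Ccr4.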
